A study of Mus musculus with 12 samples.

Results

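The respiratory chain subunits encoded in the cell nucleus were followed in blastocysts and embryonic stem (ES) cells of Dis3L KO and Dis3L WT mice. The members were all protein-coding symbols in both deposited tables that begin Nduf followed by a, b, c, s or v, the Sdh genes a to d, those that begin Uqcr, Cox4 to Cox8 or Atp5, and Cyc1 and Cycs. Assembly factors of the Ndufaf series were left out. This gave 80 genes of the 12522 protein-coding symbols listed in both tables. Of these, 37 belong to complex I, 4 to complex II, 9 to complex III, 13 to complex IV and 16 to complex V, and Cycs encodes cytochrome c, the carrier between complexes III and IV. A further 7 symbols met the naming rule in the blastocyst table only.

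The 12 labelled samples fall into 4 groups of 3: Dis3L KO blastocysts, Dis3L WT blastocysts, Dis3L KO ES cells and Dis3L WT ES cells. Dis3L encodes a 3′ exonuclease that works with the RNA exosome of the cytoplasm. Blastocysts were collected from superovulated females 96 h after the hCG injection, and each blastocyst library came from 1 embryo through cDNA cut by Tn5 transposase. The ES lines were derived from blastocysts on inactivated mouse embryonic fibroblasts and kept with LIF, and their libraries were stranded and made from RNA depleted of ribosomal RNA. The labels read here do not say which part of Dis3L is removed, whether the samples of a group are separate lines, or the animals' strain. The deposited tables hold comparison results and no value per sample. The direction of each comparison is not stated, so signs are given as deposited and no sign is assigned to a genotype.

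The means in the tables are printed to 15 significant digits, and each is a sum of whole read counts divided by fixed size factors. The whole reads behind the means were recovered for 77 of the 80 members in blastocysts and 78 in ES cells. They fell into 6 count columns in blastocysts and 4 in ES cells, although the labels list 6 ES cell samples. The columns that raise the deposited fold change are called the positive side and the others the negative side, with 3 columns per side in blastocysts and 2 in ES cells. Column numbers are only names and match no sample of the labels, and values joined by "against" give the positive side first unless stated otherwise. Size factors ran from 0.695 to 1.62 in blastocysts and from 0.759 to 1.25 in ES cells, and the authors' deposited means summed to 4608914 and 1513923 normalised reads. The authors' p-values weigh the fold change between sides against its standard error, and the only replicates behind them are these columns.

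The respiratory chain sits in the inner mitochondrial membrane. Complexes I and II pass electrons from NADH and succinate to ubiquinone, complex III passes them to cytochrome c, complex IV passes them to oxygen, and complex V, the ATP synthase, uses the proton gradient to make ATP. Most subunits are encoded in the nucleus, and a small core of complexes I, III, IV and V is encoded in mitochondrial DNA. Before implantation the embryo moves towards greater use of glucose, and cultured ES cells combine glycolysis with respiration.

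Promoters of respiratory chain genes are known for binding NRF1 and ETS-family factors such as GABPA, and for YY1 sites near the start. RefSeq promoter windows on GRCm38.p6 were matched for 68 of the 80 members, with 73 windows of 300 bases from 250 before to 50 after the annotated start. The 7 windows below run from 150 bases before to 30 after the start. They are examples that carry NRF1 or ETS matches or belong to members with low p-values, and do not stand for the family. Atp5s, also among the members with low p-values in blastocysts, is not shown. Its window of 300 bases held no NRF1, ETS or YY1 match. Capitals mark NRF1 matches (GCGCANGCG) and ETS matches (CCGGAAG, or CTTCCGG on the other strand), searched on both strands. Sdhb lies at chr4:140961121-140961300 on the plus strand, Sdhd at chr9:50603820-50603999 on the minus strand and Uqcrc1 at chr9:108936498-108936677 on the plus strand. Ndufb4 lies at chr16:37654339-37654518, Cox6a1 at chr5:115348929-115349108, Atp5k at chr5:108434370-108434549 and Cox7b2 at chr5:71548176-71548355, all on the minus strand.
Sdhb: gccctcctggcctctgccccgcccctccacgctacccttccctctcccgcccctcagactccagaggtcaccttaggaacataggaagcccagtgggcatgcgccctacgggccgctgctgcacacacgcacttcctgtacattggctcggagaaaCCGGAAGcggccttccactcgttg
Sdhd: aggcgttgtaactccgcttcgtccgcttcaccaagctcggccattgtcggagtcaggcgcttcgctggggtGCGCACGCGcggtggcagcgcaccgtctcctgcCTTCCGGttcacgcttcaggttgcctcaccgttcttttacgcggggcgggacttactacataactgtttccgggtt
Uqcrc1: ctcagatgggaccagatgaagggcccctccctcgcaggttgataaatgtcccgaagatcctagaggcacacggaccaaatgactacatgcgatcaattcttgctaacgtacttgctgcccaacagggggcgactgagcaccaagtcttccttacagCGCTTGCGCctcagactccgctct
Ndufb4: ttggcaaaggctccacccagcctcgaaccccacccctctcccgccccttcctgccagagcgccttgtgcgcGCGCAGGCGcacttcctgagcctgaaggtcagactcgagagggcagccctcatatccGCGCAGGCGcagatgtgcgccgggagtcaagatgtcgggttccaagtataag
Cox6a1: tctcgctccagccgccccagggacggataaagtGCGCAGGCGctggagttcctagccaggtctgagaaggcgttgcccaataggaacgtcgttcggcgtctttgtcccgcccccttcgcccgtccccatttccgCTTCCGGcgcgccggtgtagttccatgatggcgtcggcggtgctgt
Atp5k: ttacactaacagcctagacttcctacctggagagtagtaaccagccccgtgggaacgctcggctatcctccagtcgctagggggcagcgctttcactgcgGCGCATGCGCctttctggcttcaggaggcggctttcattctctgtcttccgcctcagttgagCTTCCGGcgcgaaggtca
Cox7b2: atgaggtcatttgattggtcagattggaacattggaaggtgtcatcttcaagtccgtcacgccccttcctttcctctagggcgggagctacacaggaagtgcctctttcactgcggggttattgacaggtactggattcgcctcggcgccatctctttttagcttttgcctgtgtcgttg

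The NRF1 matches differed in position: they began 79 bases before the start in Sdhd, 117 before in Cox6a1, 50 before in Atp5k and 6 after in Uqcrc1, while Ndufb4 held 2 matches, 79 and 22 bases before its start. The Atp5k match reads the same on both strands, so 2 overlapping matches form its run of capitals. Sdhb held an ETS match 6 bases after its start and no NRF1 match, and the window of Cox7b2 held neither. Over all 73 windows of 300 bases, 30.1% held an NRF1 match, against 14.1% of windows of genes tested in ES cells and 8.58% of windows of all protein-coding genes. YY1 matches (AANATGGCG) were in 13.7% of the members' windows, against 5.51% and 3.12%. ETS matches were in 21.9%, against 18.4% and 11.6%, so most of that difference lay between expressed genes and all genes. The CCAAT box was in 42.5% of the members' windows, against 37.8% and 38.2%, and TATAAA in 9.59%, against 6.86% and 12.6%. By complex, NRF1 matches were found for 8 of 33 complex I genes, 2 of 3 of complex II (Sdha and Sdhd), 2 of 5 of complex III (Uqcrc1 and Uqcr11), 1 of 11 of complex IV (Cox6a1) and 7 of 15 of complex V, and for Cycs. YY1 matches were found for 7 complex I genes and 3 complex V genes and for none of the complex II, III and IV genes matched. A match describes letters in the window and is not a binding site.

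**Figure D1:**
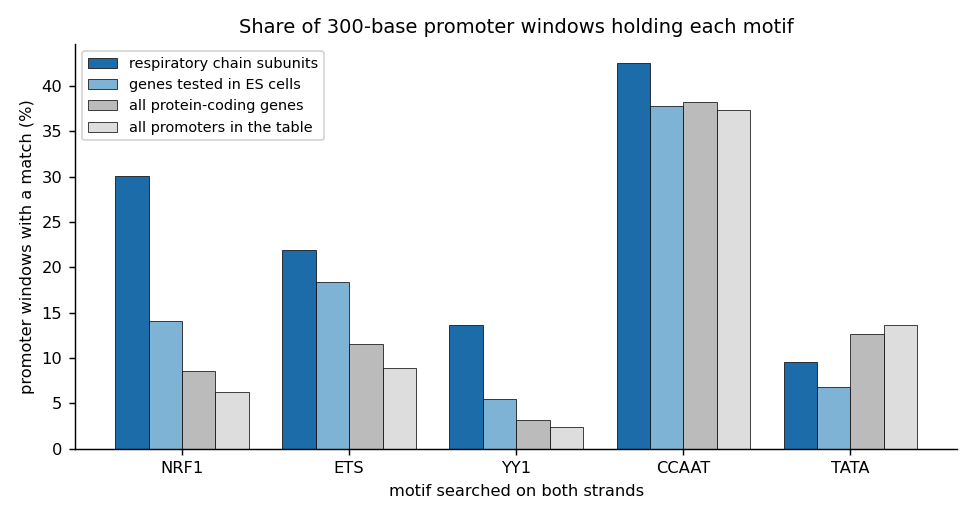
Share of 300-base promoter windows (%, vertical axis) that hold each of 5 motifs (horizontal axis), for the respiratory chain subunits, genes tested in ES cells, protein-coding genes and all promoters of the table. The bars of the subunits stand above the others for NRF1 (30.1%) and YY1 (13.7%) and close to those of tested genes for ETS, CCAAT and TATAAA.

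The gene removed in the study was read first. Dis3l had 10, 4 and 8 reads in the negative-side blastocyst columns, against 26, 8 and 0 on the positive side, with a log2 fold change of 0.28 and an adjusted p of 0.997 in the authors' deposited table. In ES cells it had 39 and 39 reads on the negative side, against 14 and 8 on the positive side, with a log2 fold change of −0.88, p = 0.00778 and an adjusted p of 0.445 in the authors' deposited table. Since the deleted part is not given, reads left in the gene check no label. As a check of the material, fibroblast markers were near absent from blastocysts, with 7 of 9 at 0 and the other two, Thy1 and Fbn1, at means of 9.86 and 5.80 normalised counts. In ES cells all 9 fibroblast markers were present, at summed levels of 660.2 and 578 on the positive side against 608 and 2014 on the negative side. All 8 pluripotency markers were present in both materials. Cdx2 and Elf5 of the trophectoderm list and Gata6 and Sox17 of the primitive endoderm list were not among the genes of the ES cell table. The other 6 of 8 trophectoderm markers were listed there, at means from 4.05 (Gata3) to 107 (Tead4). So were the other 3 of 5 primitive endoderm markers, at means from 3.04 (Gata4) to 89.6 (Pdgfra).

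No member passed the authors' adjusted p of 0.05 in either material. In blastocysts 0 of 79 tested members passed, where 0.0986% of all tested genes did, and in ES cells 0 of 80 passed, where 0.261% did. At an unadjusted p under 0.05 by the authors' DESeq2 Wald test, the deposited tables held 3 members in blastocysts (Sdhb, Atp5s and Uqcrc1, all negative) and 1 in ES cells (Cox7b2, negative), against 6.21% and 5.62% of all tested genes. Of all tested genes 3.53% had such a p with a negative and 2.68% with a positive fold change in blastocysts, and 3.42% and 2.21% in ES cells. The 4 members with an unadjusted p under 0.05 lie, per the deposited ES cell table on GRCm38, at chr4:140961203-140979193 (Sdhb), chr9:108936633-108949623 (Uqcrc1), chr12:69724950-69744660 (Atp5s) and chr5:71442824-71548205 (Cox7b2). The members' shares, 3.8% and 1.25% of the members, were no higher than those of all genes. The lowest adjusted p of a member was 0.668 in blastocysts and 0.838 in ES cells. A 95% interval inside a doubling and a halving was reached by 18 of 79 members in blastocysts, where 9.54% of all tested genes reached it, and by 77 of 80 in ES cells, where 84.8% did. Such an interval depends on the SE as well as the fold change. In blastocysts the members' median SE was 0.47 at a median mean of 174, against 0.92 and 46.3 over all tested genes. In ES cells the values were 0.30 and 78.6, against 0.31 and 62.4. The ES cell fold changes appear shrunken towards 0, with no standard error above 0.332, so their intervals may be narrower than the reads alone would give, and their sizes cannot be set against those of blastocysts.

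In blastocysts 56 of the 79 tested members (70.9%) had a negative log2 fold change, against 51.7% of all tested genes, and the members' median was −0.17 against −0.04. By complex, with no test between complexes, the median was −0.25 in complex I (26 of 37 negative), −0.73 in complex II (3 of 4), −0.42 in complex III (8 of 9), 0.04 in complex IV (5 of 12) and −0.16 in complex V (13 of 16), and Cycs stood at −0.43. In ES cells the median was 0.01, with 38 of 80 negative, and every complex lay between −0.07 and 0.05. Of the 79 members tested in both, 26 were negative in both tables and 12 positive in both, while 30 were negative in blastocysts and positive in ES cells and 11 the reverse. The tables do not state whether both were subtracted the same way round.

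**Figure D2:**
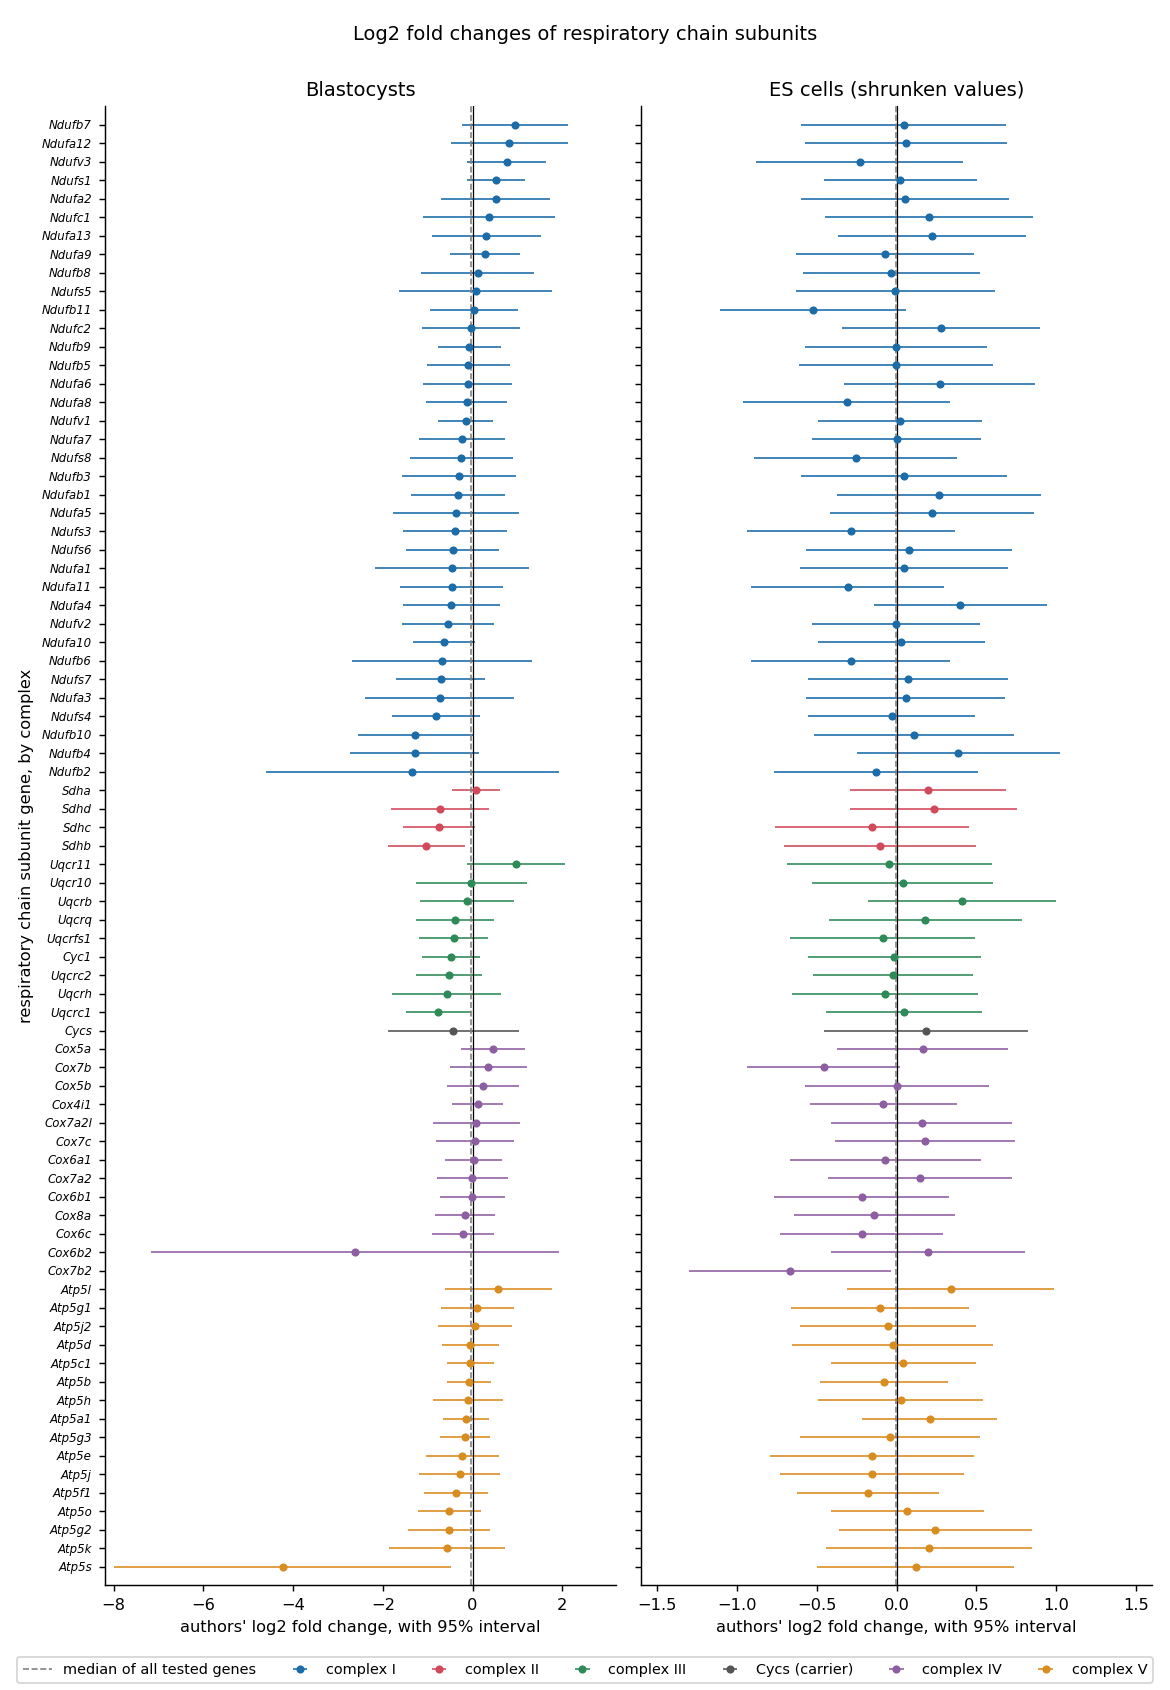
Authors' log2 fold change of 79 of the 80 subunit genes with its 95% interval (horizontal axes) in blastocysts (left) and ES cells (right, shrunken values), sorted by complex, with the median of all tested genes dashed. Intervals of all but Sdhb, Uqcrc1 and Atp5s in blastocysts and Cox7b2 in ES cells reach 0, and points of complexes II and III lie mostly to the left in blastocysts.

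The columns with the members' highest and lowest levels were on the same side in both materials. For members with a mean of at least 20, the level in each column was taken relative to the gene's mean over columns, and the median over all tested genes was subtracted. In blastocysts the median of 73 members was −0.12, −0.17 and −0.07 on the log2 scale in the positive-side columns, against 0.05, −0.21 and 0.25 in the negative-side columns. Negative-side column 3 was thus the highest and negative-side column 2 the lowest, on the same side. Without negative-side column 3 the blastocyst median log2 ratio of the members fell in size from −0.19 to −0.08, with 42 of 76 members negative instead of 53. Over all genes that median went from −0.046 to −0.004. Without positive-side column 1 the members stood at −0.19 and all genes at −0.10. In ES cells the median of 70 members was 0.05 and −0.01 on the positive side against 0.21 and −0.24 on the negative side. The members' median log2 ratio in ES cells was 0.26 without negative-side column 1 and −0.18 without negative-side column 2, against 0.02 with all columns.

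Transcripts of the family are short, with a median of 913 bases over the longest protein-coding transcript of each gene against 3295 for genes tested in ES cells, and 44 of 80 were under 1000 bases. Other genes with transcripts under 1000 bases were taken the same way. In blastocysts their medians were −0.20, −0.17 and −0.15 on the positive side against 0.24, −0.00 and 0.33 on the negative side (336 genes), and in ES cells 0.04 and 0.08, then 0.18 and −0.27 (338 genes). In blastocysts the other short genes were higher in every negative-side column than in any positive-side column, which the members were not: in negative-side column 2 all members together were at their lowest. The 42 members under 1000 bases were at −0.15, −0.18 and 0.03 against 0.02, −0.15 and 0.19, so their lowest column was positive-side column 2. The 31 longer members were at −0.40 in negative-side column 2. In ES cells the members and the other short genes were both highest in negative-side column 1 and lowest in negative-side column 2. The blastocyst log2 fold change of other short-transcript genes had a median of −0.35 with 66.7% of 610 negative, against −0.17 for the members under 1000 bases. Members with longer transcripts stood at −0.29, against −0.02 for other genes of that length. ES cell negative-side column 2, where the members were lowest, was also the column with 2014 summed normalised reads of fibroblast markers. The pluripotency markers summed to 2079, 1111 and 956 on the positive side against 2208, 1899.7 and 2716 on the negative side in blastocysts, where the columns overlapped. There 6 of 8 were negative, where 51.7% of all tested genes were, with a median log2 fold change of −0.40. At p under 0.05 by the authors' Wald test there were 3 (Tdgf1, Nanog and Pou5f1, all negative), against 6.21% of all tested genes. An adjusted p of 0.05 was passed by 0 of them. In ES cells all 8 pluripotency markers had negative fold changes, and the 7 with recovered reads summed to 3237 and 2513 against 4158 and 3417, with no overlap. The 5 primitive endoderm markers in blastocysts summed to 1940.2, 1754 and 1309.6 against 1894, 2027 and 2238, and the columns overlapped. Of these, 4 were negative, and 1 had p under 0.05 by the authors' Wald test (Sox7, log2 fold change 3.27). The 3 trophectoderm markers of 8 with recovered reads (Elf5, Tead4 and Tfap2c) summed to 1049, 1248 and 1529 against 1074, 1366 and 1082, and also overlapped. Cdx2, Eomes, Gata3, Krt8 and Krt18 had means above 1000, where reads were not sought, so these sums leave out the most abundant markers of the list. All 8 trophectoderm markers were tested, with 4 positive and 4 negative. By the same test 3 of the 8 had p under 0.05: Krt8 (−0.87), Krt18 (−0.63) and Gata3 (0.52). Of all tested genes 6.21% had such a p. The part of transcript length or of cell makeup in the members' levels was not tested, and in such bulk samples fewer cells of a type and less RNA per cell cannot be told apart.

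**Figure D3:**
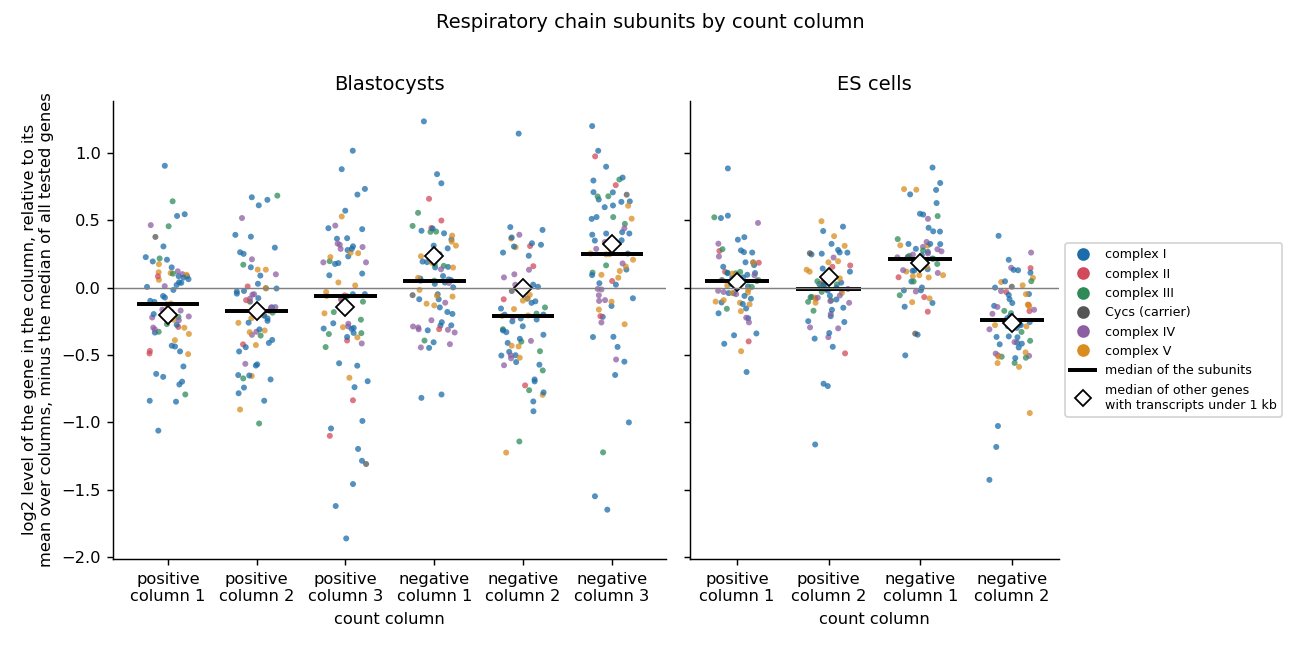
Log2 level of each subunit gene in each count column relative to its mean over columns, minus the median of all tested genes (vertical axis), with points coloured by complex, the members' median as a bar and the median of other short-transcript genes as a diamond. The highest bar is in blastocyst negative-side column 3 (0.25) and the lowest in ES cell negative-side column 2 (−0.24), and in blastocyst negative-side column 2 the members lie at −0.21 and the other short genes at −0.00.

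Levels per kb of transcript set the order of the members. The catalytic subunits of complex V led in both materials. Atp5b, the beta subunit, had a mean of 3551 normalised counts per kb in blastocysts and 869.9 in ES cells, followed by Atp5a1, the alpha subunit, with 2053 and 543. Cox4i1, a complex IV subunit that assembles early with the mitochondrially encoded Cox1, came next with 1172 and 464. At the other end stood Cox7b2 in blastocysts (1.77 per kb) and the coupling factor B gene Atp5s in ES cells (7.86 per kb). By complex the median level per kb in blastocysts was 123 in complex I, 178 in complex II, 252 in complex III, 437 in complex IV and 396 in complex V, and in ES cells it was 54.9, 62.3, 95.9, 169.6 and 119. The largest moves in rank among the 80 were those of Atp5d, the delta subunit of complex V, from rank 17 in blastocysts to 56 in ES cells, of Cox7b from 37 to 9, of Ndufa4 from 39 to 12 and of Ndufb6 from 73 to 46. Cycs was low per kb in both, at 19.5 and 11.4, over a transcript of 3123 bases. Across the 80 genes the levels in both materials correlated with a Spearman rho of 0.836; the points share the transcript lengths, genes are not replicates, and the libraries were made by different protocols.

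**Figure D4:**
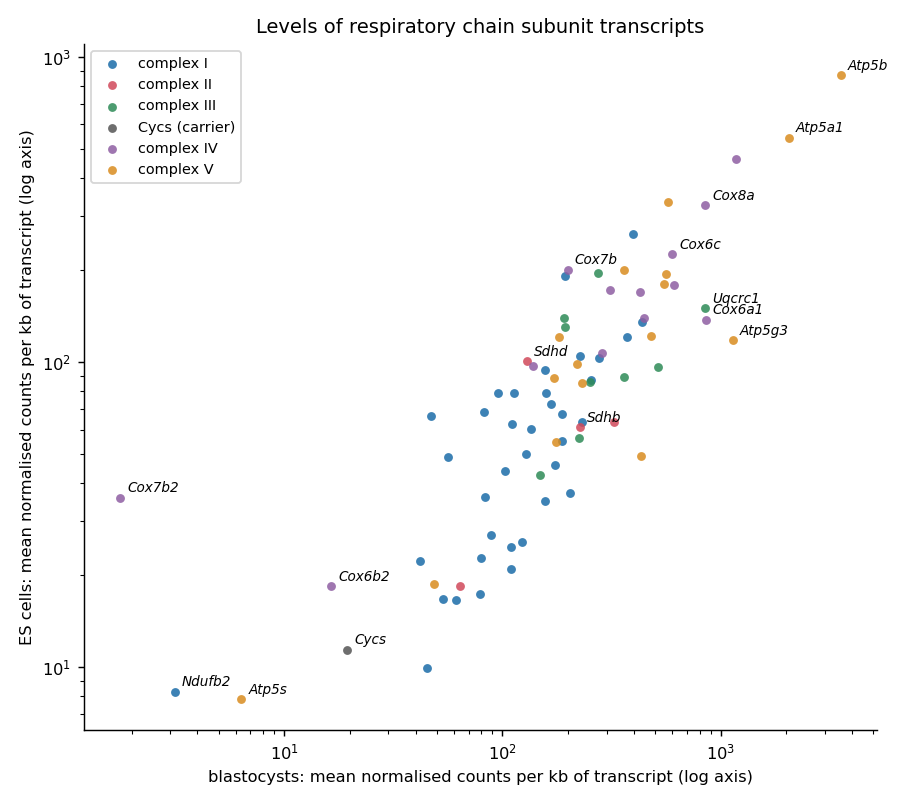
Mean normalised counts per kb of transcript in blastocysts (horizontal, log axis) and ES cells (vertical, log axis) for the 80 subunit genes, coloured by complex. Atp5b and Atp5a1 stand highest in both, and Cox7b2 lies farthest to the left, at 1.77 per kb in blastocysts and 35.9 in ES cells.

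Complex I takes electrons from NADH through a flavin and a chain of iron-sulfur clusters. In blastocysts its most negative statistic belonged to Ndufb10, an accessory subunit of the membrane arm. Its normalised reads were 47.1, 71 and 22.9 on the positive side against 126, 100.3 and 115 on the negative side. The columns did not overlap, and the log2 fold change was −1.28 with an SE of 0.65, p = 0.0506 and an adjusted p of 0.806 in the authors' deposited table. Ndufb4, another membrane arm subunit, was apart in the same direction, at 25.7, 52.8 and 25.1 against 64.3, 64.7 and 124. The most positive statistic belonged to Ndufv3, a small subunit of the NADH-binding module, with 177, 193 and 281 on the positive side against 143, 123 and 118 on the negative side. Its log2 fold change was 0.76 with an SE of 0.45 and p = 0.0928 in the authors' deposited table.

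The core subunits of complex I did not share a direction in blastocysts. Ndufs1, which holds iron-sulfur clusters of the NADH module, was higher in every positive-side column, at 449, 566 and 481 against 412, 293 and 337 normalised reads. Ndufs7, which carries the last iron-sulfur cluster before ubiquinone, was at 161, 128 and 101 against 302, 120.4 and 213. The log2 fold changes of 4 other core subunits in the authors' deposited table were −0.39 for Ndufs3, −0.25 for Ndufs8, −0.15 for the NADH-binding Ndufv1 and −0.54 for Ndufv2, none with p under 0.05. Ndufb7, an accessory subunit of the membrane arm, was apart and higher on the positive side, at 107, 112 and 167 against 104, 49.1 and 46. Per kb, Ndufb9 was the highest complex I gene in blastocysts (437) and Ndufb2 the lowest (3.15), the latter over an annotated transcript of 4371 bases.

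In ES cells Ndufa4 and Ndufb11 marked the ends of complex I. Ndufa4, named for complex I but now regarded as a subunit of complex IV, was at 137 and 137 on the positive side against 112 and 80.2 on the negative side, with a log2 fold change of 0.40, an SE of 0.28 and p = 0.15 in the authors' deposited table. Ndufb11, an X-linked membrane arm subunit, was at 79 and 48.7 against 118 and 94.7, with −0.52, an SE of 0.30 and p = 0.0786 in the authors' deposited table. Both had columns apart. Core subunits close to 0 in the authors' deposited table were Ndufs1 (0.02), Ndufv2 (−0.00), Ndufs7 (0.07) and Ndufv1 (0.02). The core subunits Ndufs3 and Ndufs8 were lower there, at −0.28 and −0.26 with SEs of 0.33 and 0.32. Ndufab1, the mitochondrial acyl carrier protein, was apart and higher on the positive side, at 39.1 and 40.8 against 26.6 and 31.9. Ndufa7 was the highest complex I gene per kb (262) and Ndufb2 again the lowest (8.29).

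Complex II, succinate dehydrogenase, is the one complex with no subunit encoded in mitochondrial DNA. Sdhb, the iron-sulfur subunit, had the lowest p of all members in blastocysts. Its normalised reads were 177, 219 and 112 on the positive side against 392, 233 and 417 on the negative side, so the sides stood apart by the small gap between 219 and 233. The log2 fold change was −1.04 (95% interval −1.89 to −0.18, SE 0.44), with p = 0.0183 and an adjusted p of 0.668 in the authors' deposited table. Sdhc, a membrane anchor, was at 149.9, 154 and 153 against 293, 256 and 213, with no overlap and little spread on the positive side. Its log2 fold change was −0.74 with an SE of 0.41 and p = 0.0702 in the authors' deposited table. The other anchor, Sdhd, was at 124, 152 and 82.3 against 207, 91.4 and 296, and its columns overlapped. Sdha, the flavin subunit, was at 1052, 926 and 923 against 800.3, 1104 and 849, with a log2 fold change of 0.08.

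In ES cells complex II did not repeat that order. Sdhb was at 83 and 48.7 against 79.9 and 67.6, and Sdhc at 43.9 and 64.5 against 60.9 and 64.7, and both sets of columns overlapped. Sdhd was at 134 and 138 against 108 and 114, and Sdha at 209 and 188 against 174 and 164, so both were apart and higher on the positive side. Their log2 fold changes were 0.23 and 0.20, against −0.10 for Sdhb and −0.15 for Sdhc, none with p under 0.05 in the authors' deposited table. Per kb, Sdha was highest in blastocysts (325) and Sdhd in ES cells (100.5), and Sdhc was lowest in both (64.1 and 18.5). The annotated transcript of Sdhc had 3171 bases. Its mean in blastocysts, 203, was above that of Sdhd, 159, while in ES cells its mean of 58.5 was also the lowest of the complex.

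In complex III, 8 of 9 members were negative in blastocysts. Uqcrc1, a core protein of the matrix side, had the lowest p, at a mean of 1395 and with a log2 fold change of −0.77, an SE of 0.37, p = 0.038 and an adjusted p of 0.769 in the authors' deposited table. Its reads per column were not sought in blastocysts, since only means up to 1000 were tried there. Uqcrc2, its partner, was at 567, 598 and 521 on the positive side against 938, 401 and 1082 on the negative side. Cyc1, the cytochrome that hands electrons to cytochrome c, was at 689.6, 700.3 and 571 against 1067, 575 and 1102. Uqcrfs1, the Rieske iron-sulfur protein, was at 249.8, 244 and 290.2 against 460.1, 236 and 348. In all 3 genes negative-side column 2 was within or below the positive side and the other negative-side columns were above it. Uqcr11, a small peripheral subunit, was the 1 positive member, at 149.9, 175 and 121 against 82.9, 98.1 and 46, with a log2 fold change of 0.97, an SE of 0.55 and p = 0.0798 in the authors' deposited table.

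In ES cells Uqcrb, a ubiquinone-binding subunit, had the most positive statistic of complex III, at 105 and 73.7 against 69.4 and 51.2, with a log2 fold change of 0.41 and p = 0.173 in the authors' deposited table. Uqcrfs1 had the most negative, at 68.7 and 79 against 92.2 and 67.6, with −0.09. Uqcrc1 was at 255 and 250.2 against 289 and 198, so its columns overlapped there. Per kb, Uqcrc1 was highest in blastocysts (844), Uqcr10 in ES cells (195), and Uqcrq lowest in both (149 and 42.5). The annotated transcript of Uqcrq had 1521 bases. Its mean was 226 in blastocysts, against 102 for Uqcrb over 535 bases, and 64.6 in ES cells, against 38.1 for Uqcr11 over 445 bases. Cycs was at 77.1, 54.8 and 22.9 against 56.9, 58 and 94.9 in blastocysts, and at 36.7 and 42.1 against 27.6 and 35.8 in ES cells, where the sides were apart by less than 1 normalised read.

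Complex IV, cytochrome c oxidase, was centred near 0 in blastocysts. Cox5a, a subunit on the matrix side, had the most positive statistic, at 560.4, 322 and 485 against 343, 281 and 375, with a log2 fold change of 0.45, an SE of 0.36 and p = 0.212 in the authors' deposited table. The most negative belonged to Cox6b2, a testis form of Cox6b, on few reads: 0, 8.12 and 0 against 13.6, 35.7 and 0. Cox4i1 was at 808, 845 and 1144 against 757, 952 and 875, and Cox5b, the zinc-binding subunit, at 276, 242 and 283 against 192, 181 and 311. Both sets of columns overlapped.

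The isoforms known from other tissues were at or near 0 in blastocysts. Cox4i2 (lung), Cox6a2 and Cox8b (heart and muscle), Cox8c (testis) and Ndufa4l2 were listed at 0, and 0 reads allow a mean of up to 0.719 normalised counts by 3 reads in the shallowest column. Cox7a1 (heart and muscle) had a mean of 2.53. Their common counterparts were present, with Cox4i1 at a mean of 897, Cox6a1 at 487, Cox8a at 467 and Cox7a2 at 295. Cox7a2l, which joins complexes III and IV into supercomplexes, had a mean of 156. Atp5sl, the remaining symbol of the blastocyst table only, had a mean of 108, and its log2 fold change was −0.34 in the authors' deposited table.

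Cox7b2, a testis form of Cox7b, had the lowest p of all members in ES cells and the lowest level per kb in blastocysts. In blastocysts it was found only in negative-side column 3, at 5.75 normalised reads, and was not tested. In ES cells it was at 3.99 and 13.2 on the positive side against 11.4 and 49.3 on the negative side. The columns overlapped, and negative-side column 2 held most of the reads. Its log2 fold change was −0.67 with an SE of 0.32, p = 0.0382 and an adjusted p of 0.838 in the authors' deposited table. That column was also the one with the highest fibroblast marker sum, and its part in the result was not tested.

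Other complex IV members in ES cells had smaller statistics than Cox7b2. Cox7b, which is X-linked, was at 165 and 161 against 237 and 239, with a log2 fold change of −0.46, an SE of 0.24 and p = 0.062 in the authors' deposited table. Those columns agreed closely within sides and did not overlap. The 3 X-linked members stood at −0.46 (Cox7b), −0.52 (Ndufb11) and 0.05 (Ndufa1, an accessory subunit of the membrane arm), where the median over 370 tested X-linked genes was −0.31 and over autosomal genes 0.01. In blastocysts the same 3 genes were at 0.35, 0.03 and −0.45, and the X-linked median was −0.18. Cox6b1, on the intermembrane space side, and Cox6c, a membrane subunit, were apart and lower on the positive side in ES cells, at 89.4 and 100.1 against 126 and 103, and at 173 and 128 against 179.7 and 185. The most positive statistic was that of Cox6b2 on few reads, at 19.2 and 6.58 against 9.51 and 7.73.

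Complex V was mostly slightly negative in blastocysts, and its catalytic subunits were among the most precisely measured members. Atp5a1 and Atp5b had log2 fold changes of −0.15 and −0.08 with SEs of 0.26 and 0.25, and Atp5c1, the rotating gamma subunit, −0.05 with an SE of 0.27, in the authors' deposited table. Reads of Atp5c1 were 1086, 873 and 855 against 965, 899 and 1050.2. Atp5s had the most negative statistic on few reads: 2.86, 0 and 0 normalised reads on the positive side against 13.6, 15.6 and 28.8 on the negative side. Its log2 fold change was −4.23 with an SE of 1.92, p = 0.0274 and an adjusted p of 0.737 in the authors' deposited table. Atp5k, a subunit at the dimer interface, was apart at 60, 34.5 and 59.4 against 74.2, 80.3 and 74.8. The most positive was Atp5l, another dimer subunit, at 107, 104 and 133 against 111, 40.1 and 77.7.

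The c-ring genes Atp5g1, Atp5g2 and Atp5g3 encode the same mature protein behind different import sequences. In blastocysts Atp5g3 was the highest per kb (1134), against 231 for Atp5g2 and 48.5 for Atp5g1, the last over an annotated transcript of 4715 bases. In ES cells the values were 118, 84.9 and 18.7. Their log2 fold changes were 0.11, −0.52 and −0.17 in blastocysts and −0.10, 0.24 and −0.04 in ES cells, in the order Atp5g1, Atp5g2 and Atp5g3, in the authors' deposited table. In ES cells Atp5g1 was apart and lower on the positive side (86.2 and 81.6 against 93.2 and 91.8) and Atp5g2 apart and higher (69.5 and 69.8 against 67.5 and 41.5).

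Elsewhere in complex V in ES cells, Atp5l had the most positive statistic, at 31.1 and 40.8 against 26.6 and 20.3, with a log2 fold change of 0.34 and p = 0.305 in the authors' deposited table. Atp5f1, the peripheral stalk subunit b, had the most negative, at 276 and 303 against 337 and 330.5, with −0.18 and p = 0.435 in the authors' deposited table. Atp5s, low on the positive side in blastocysts, was at 11.2 and 17.1 against 17.1 and 4.83 in ES cells, and its columns overlapped. The blastocyst table lists 4 named processed pseudogenes of the family (Atp5l-ps1, Atp5l-ps2, Atp5l2-ps and Atp5k-ps2), with means from 0.65 to 7.06. The means of Atp5l and Atp5k there were 95.4 and 63.9. Whether reads were split between these genes and the pseudogenes was not tested.

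**Figure D5:**
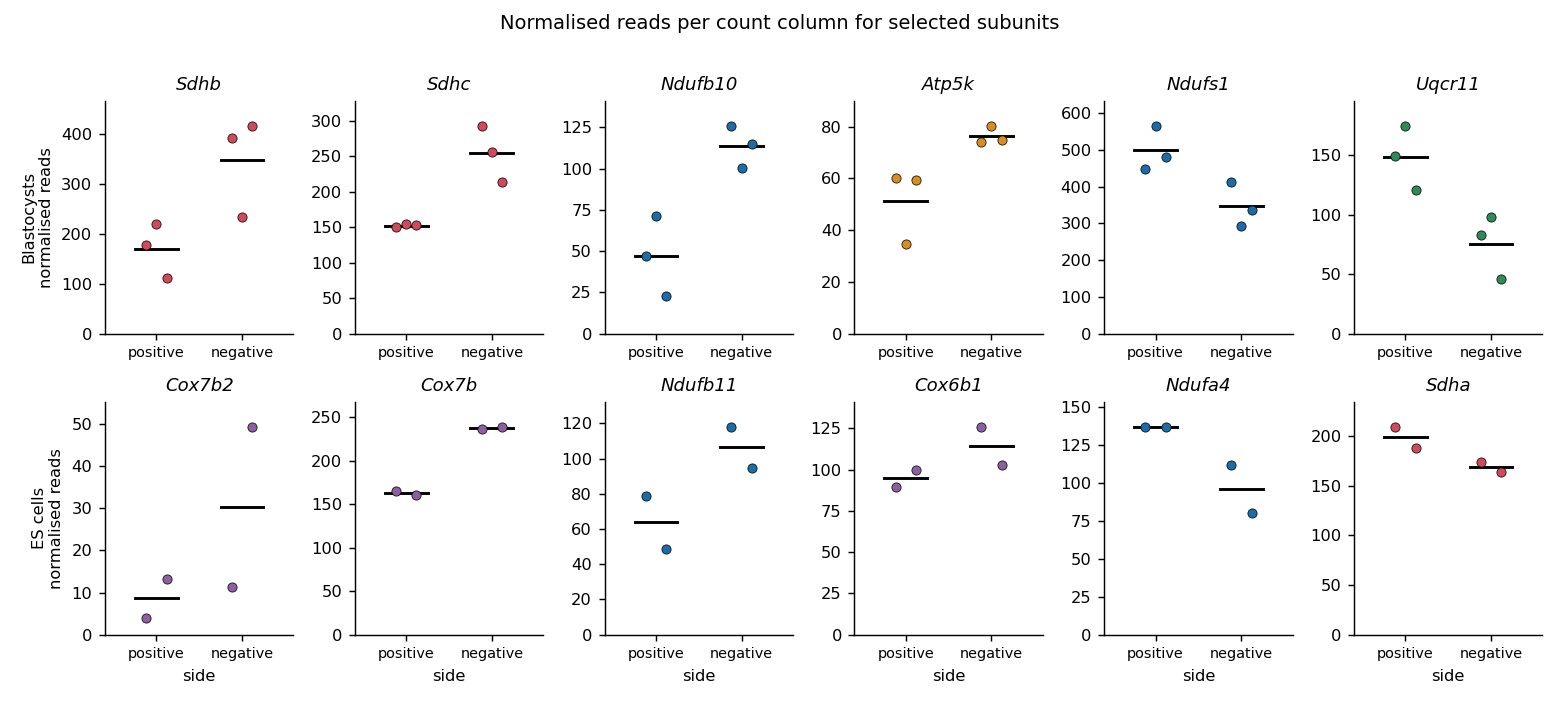
Normalised reads (vertical axes, from 0) in each count column of the positive and the negative side for 6 subunits in blastocysts (top) and 6 in ES cells (bottom), with horizontal bars at the mean of a side. Sdhb, Sdhc, Ndufb10 and Atp5k are lower and Ndufs1 and Uqcr11 higher in every positive-side blastocyst column, and in ES cells the Cox7b2 reads lie mostly in 1 negative-side column.

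The share of members with columns apart was read against that of all genes. With a mean of at least 20, 5 of 73 members (6.85%) in blastocysts were lower in every positive-side column (Sdhb, Sdhc, Ndufb10, Ndufb4 and Atp5k), where 6.72% of all tested genes were. The opposite held for 4 (5.48%: Ndufs1, Ndufb7, Ndufv3 and Uqcr11), where 6.0% of all tested genes did. In ES cells 8 of 70 (11.4%) were lower (Atp5f1, Ndufa11, Atp5g1, Cox6c, Ndufb11, Cox7b, Cox6b1 and Ndufb6) and 11 (15.7%) higher (Cox5a, Sdhd, Uqcrb, Sdha, Ndufa6, Ndufa4, Ndufc2, Ndufab1, Atp5l, Atp5g2 and Cycs), where 20.5% and 20.3% of all tested genes were. With 2 columns per side, such separation is common.

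Genes that act with the subunits were described by their counts. Of 46 tested assembly factors in blastocysts 32 were negative, where 51.7% of all tested genes were, with a median log2 fold change of −0.37 and 1 at p under 0.05, where 6.21% of all tested genes had such a p, and in ES cells 16 of 42 were negative, where 50.0% of all tested genes were, with a median of 0.05 and 0 at p under 0.05 by the authors' Wald test. The 14 tested regulators of mitochondrial gene expression had medians of −0.08 in blastocysts (8 negative) and −0.05 in ES cells (9 negative). At p under 0.05 there was 1 of 14 in blastocysts, where 6.21% of all tested genes had such a p, and 0 of 14 in ES cells, where 5.62% did. The 1 was Nrf1, at −0.70 with an SE of 0.35, p = 0.0486 and an adjusted p of 0.796 in the authors' deposited table, and at 0.08 in ES cells. Its product binds the motif counted above, and its part in the members' levels was not tested. Ppargc1a, a coactivator of mitochondrial biogenesis, was at 0 in blastocysts and not among the genes of the ES cell table. The subunits encoded in mitochondrial DNA had a median of 0.41 in blastocysts, on the other side of 0 from the median of the nuclear ones, of which 23 of 79 were also positive. Of the 13 mitochondrial genes 11 were positive and 2 negative, where 51.7% of all tested genes were negative. In ES cells their median was 0.40 over 7 listed genes, 6 positive and 1 negative, where 50.0% of all tested genes were negative. At p under 0.05 there were 3 of 13 in blastocysts and 3 of 7 in ES cells, where 6.21% and 5.62% of all tested genes had such a p, and 0 passed the authors' adjusted p of 0.05 in any of these lists.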

How the data were processed

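Per the submitters' processing notes, STAR 2.4.0b, SAMtools, bedtools, featureCounts, Subread 2.0.1 and DESeq2 1.34.0 were used on GRCm38; their roles and settings are not given in the sources used here. Of each table, the deposited mean of normalised counts is a signal, the authors' fold change and standard error are on the log2 scale, the authors' Wald statistic is a score, and the deposited p-value columns hold raw and adjusted values, per the file headers. The planned edgeR test needs counts per sample, which the tables do not hold, so the authors' statistics were used, with an adjusted p under 0.05 counted as changed.

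Whole reads were recovered as the single set of integers whose size-factor-weighted sum gives a mean to its printed digits, with integer lattice reduction in Python 3.11.15 (numpy 2.4.6, numba 0.67.0). In blastocysts means up to 1000 were tried, and where several sets fitted, the one that gave back the authors' fold change within 2e-06 was kept. This resolved 95.3% of 14797 genes in blastocysts and 98.5% of 13009 in ES cells, and the recovery was tested on simulated data. Uqcrc1, Atp5a1 and Atp5b lie above that mean in blastocysts and were not tried, Atp5a1 and Atp5b in ES cells were not resolved, and these are left out of values per column. A pseudocount of 0.5 was added for relative log2 levels. Levels per kb used the longest protein-coding transcript in GENCODE release 21 for mouse. In all, 0 columns of per-sample values were left aside.

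Named genes were, per complex and table, members with p under 0.05, those with the most positive and most negative statistic and the highest and lowest level per kb, core subunits, isoform groups and X-linked members; genes whose columns do not overlap were added after their values were seen. The members and lists were chosen with earlier results of these data known. Alternatives were stricter thresholds, other sets of genes for the adjustment, rescaled statistics, a minimum mean of 50, autosomal members, recovered reads and leaving out each count column. For 1 member, counted in all totals, values of its own are not reported here.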

Additional observations from a re-analysis of the deposited data

How the results depend on the processing

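The count of changed members was 0 in both materials under every alternative: an adjusted p of 0.01, adjustment over every gene with a p-value, over genes with a mean of at least 50 or over autosomal genes, and statistics rescaled to a robust SD of 1. The lowest adjusted p of a member ranged from 0.584 to 0.926 in blastocysts and from 0.479 to 0.983 in ES cells. The blastocyst median log2 fold change of the members stayed negative, at −0.15 with a mean of at least 50 and −0.19 over autosomal members. It was −0.19 from recovered reads, and from −0.26 to −0.08 with each column left out, against −0.10 to 0.00 over all genes. These reads were partly chosen to give back the authors' fold change, so that median is no independent check. The ES cell median of the members was −0.00 with a mean of at least 50, 0.02 over autosomal members and 0.02 from recovered reads. With each column left out it ran from −0.18 to 0.26, against −0.02 to 0.01 over all genes, so its sign rested on single columns. No paired analysis was possible because the tables hold no columns that carry a replicate number. Undoing the shrinkage of the ES cell fold changes was not run, since the recovered reads give the unshrunken ratio. Depth limits the lowest members: Cox6b2, Cox7b2 and Atp5s rest on few reads per column.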
